A study of Homo sapiens with 2 samples.

Results

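Interferon-stimulated genes and the genes of major histocompatibility complex (MHC) class I antigen presentation were examined in HepG2 cells, a human hepatocellular carcinoma line, as a set of 45 genes among 60623 annotated entries. The set was given as a list of gene names, matched through Ensembl identifiers. Its rule uses no measured value, but the list was drawn up with earlier results of these data known. It was divided by role into 12 antigen presentation genes, 6 transcription factors of the IRF and STAT families, and 27 antiviral and other interferon-stimulated genes. All 45 were found once in the files and all passed the minimum for comparison, a total of 10 counts across the libraries, which 20431 entries reached. The question addressed was how the interferon program and the class I pathway differ between steatotic cells without and with a retinoid, and whether the antigen presentation genes and the antiviral genes differ to the same extent.

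Both groups were wild-type HepG2 cells loaded for 24 h with 1 mM free fatty acids (FFA), oleic and palmitic acid bound to albumin. One group received FFA alone and the other FFA with 9-cis-RA at 10 μM, an isomer of retinoic acid that activates both RXR and RAR. Each group was 1 library of poly(A) RNA, both from the batch named Batch 1, with 60821539 fragments counted on genes for FFA and 57669670 for FFA + 9-cis-RA. With 1 library per group no replicate error exists, so no test was run and no p-value is given. An effect of 9-cis-RA and any other difference of the cultures cannot be told apart, and fewer cells expressing a gene cannot be told apart from less RNA per cell.

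Interferons are secreted proteins that alert cells to infection. Type I and type III interferons activate the Janus kinases JAK1 and TYK2, and a complex of STAT proteins with IRF9 then binds the interferon-stimulated response element (ISRE) in the promoters of its target genes, whose products block viral entry, translation and replication. MHC class I molecules carry peptides to the cell surface for inspection by T cells. The peptides are cut by the proteasome, in part by its interferon-inducible immunoproteasome subunits, pumped into the endoplasmic reticulum by the transporter TAP, and loaded onto a heavy chain bound to β2-microglobulin. The class I genes respond to interferon as well but are also transcribed without it, under control of the coactivator NLRC5. Hepatocytes and hepatoma cells express both the class I pathway and the interferon receptors.

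Most of the interferon-stimulated genes had fewer normalized counts in the FFA + 9-cis-RA library, whereas the class I heavy chains, β2-microglobulin and the peptide transporter differed little. Each log2 fold change compares FFA + 9-cis-RA with FFA after division by DESeq2 size factors and addition of a pseudocount of 1, and each has an exact 95% interval (Clopper-Pearson) that covers counting error only. A gene is called lower or higher here where this interval lies wholly below or above 0. By this measure 29 of the 45 genes were lower and 3 were higher, while 13 had an interval that included 0. Over all 20431 genes compared, 25.7% were lower and 22.5% were higher, and over the 15917 genes with at least 50 counts these shares were 30.5% and 27.3%. The 41 members with at least 50 counts included all 29 lower and all 3 higher members. The median log2 fold change was -0.30 over the 45 genes and -0.020 over all genes compared.

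The 3 groups of genes were not alike. Among the 27 antiviral and other interferon-stimulated genes, 19 were lower and 1 was higher, with a median log2 fold change of -0.53 and quartiles of -0.63 and -0.24. Among the 12 antigen presentation genes, 7 were lower and 1 was higher, with a median of -0.11 and quartiles of -0.25 and -0.056. Among the 6 IRF and STAT genes, 3 were lower and 1 was higher, with a median of -0.21. The medians of the antigen presentation and antiviral genes thus differed by 0.42 on the log2 scale, a description of these libraries that was between 0.42 and 0.43 under each scaling, pseudocount and count minimum tried. With genes weighted by their counts the gap was smaller. The summed counts gave -0.09 for the antigen presentation genes and -0.31 for the antiviral genes, a difference of 0.22. In the 2 lists of like genes outside the set, described further below, this gap was not seen. There the median was -0.19 for 15 other class I pathway genes and -0.20 for 25 other interferon-stimulated genes. Summed counts of those lists gave -0.21 and -0.13, the reverse order. Most counts of that class I list came from the chaperone genes CALR, CANX and PDIA3. With FFA they had 81298, 84417 and 26100 counts of 226377, so the summed value mainly reflects these genes. The gap between the medians thus describes the listed members. Quartiles over all genes compared were -0.26 and 0.18, so the median antiviral gene lay below the lower quartile and the median antigen presentation gene lay within the central range.

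**Figure D1:**
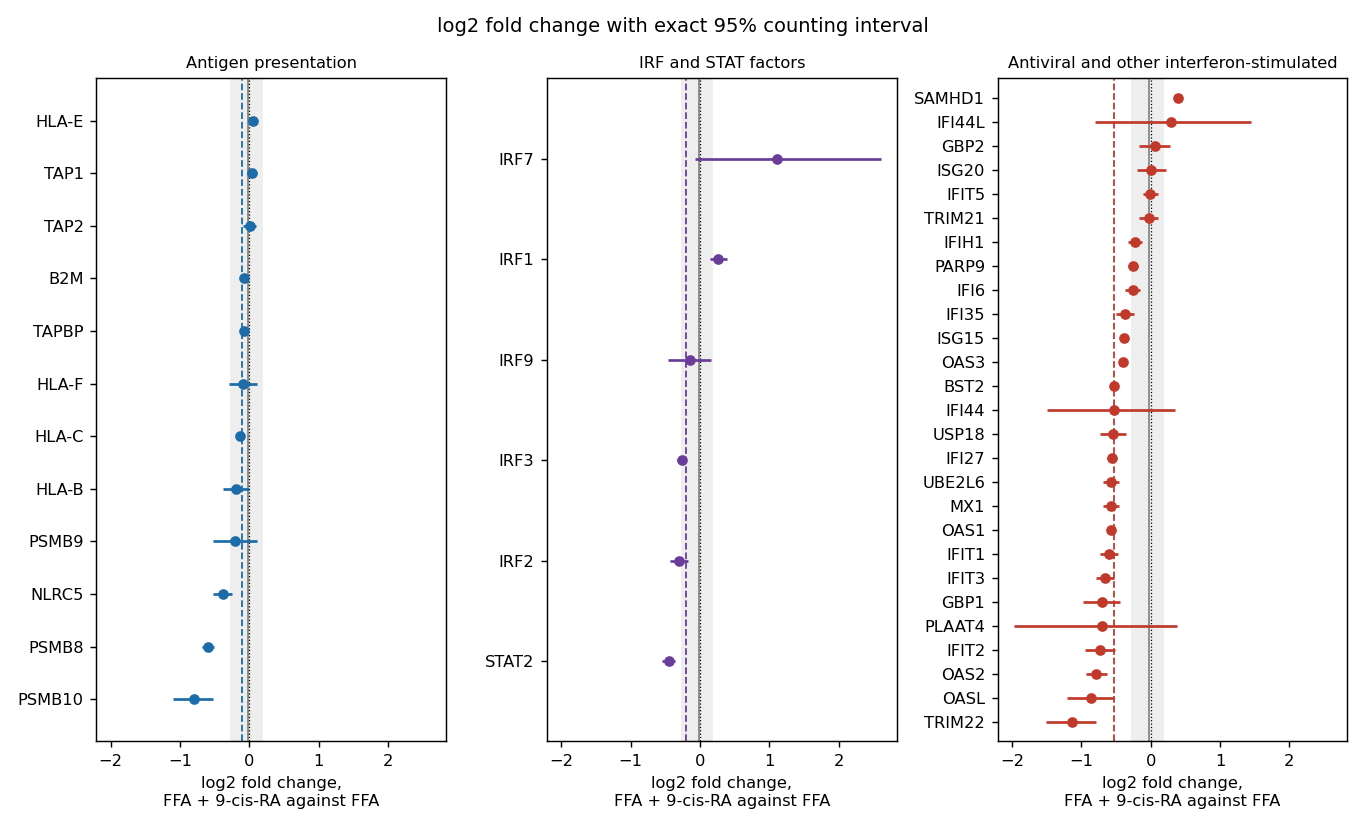
Log2 fold change (FFA + 9-cis-RA against FFA) of the 45 genes in 3 panels by role, with points for the value, bars for the exact 95% counting interval, a dashed line for the panel's median and gray shading for the quartiles of all genes compared (-0.26 to 0.18), whose median is the gray line. Apart from NLRC5, PSMB8 and PSMB10 the antigen presentation genes lie between -0.21 and 0.06, and 15 of the 27 antiviral genes lie below -0.5.

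Few members passed 1 on the log2 scale. A value below -1 was found for 1 member, TRIM22, against 4.90% of all genes compared and 2.27% of those with at least 50 counts. A value above 1 was found for 1 member, IRF7, against 3.37% and 0.961%. IRF7 had 26 counts in all, and its interval included 0. At a lower threshold of 0.5, which was chosen after the data were seen, 17 members were below -0.5 and 1 was above 0.5. Of all genes compared 14.3% and 9.03% were, and of genes with at least 50 counts 9.31% and 4.64%. The 17 include IFI44 and PLAAT4, which had fewer than 50 counts over both libraries (45 and 30) and intervals that included 0. The same was true of IRF7, the member above 0.5. Of these 17 members 15 were antiviral or other interferon-stimulated genes and 2 were immunoproteasome subunits. In fragments, the antiviral genes together held 0.0956% of the FFA library (95% interval 0.0949% to 0.0964%) and 0.0797% of the FFA + 9-cis-RA library (0.0789% to 0.0804%). The antigen presentation genes held 0.0853% (0.0846% to 0.0860%) and 0.0830% (0.0822% to 0.0837%), with all intervals by the Clopper-Pearson method.

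**Figure D2:**
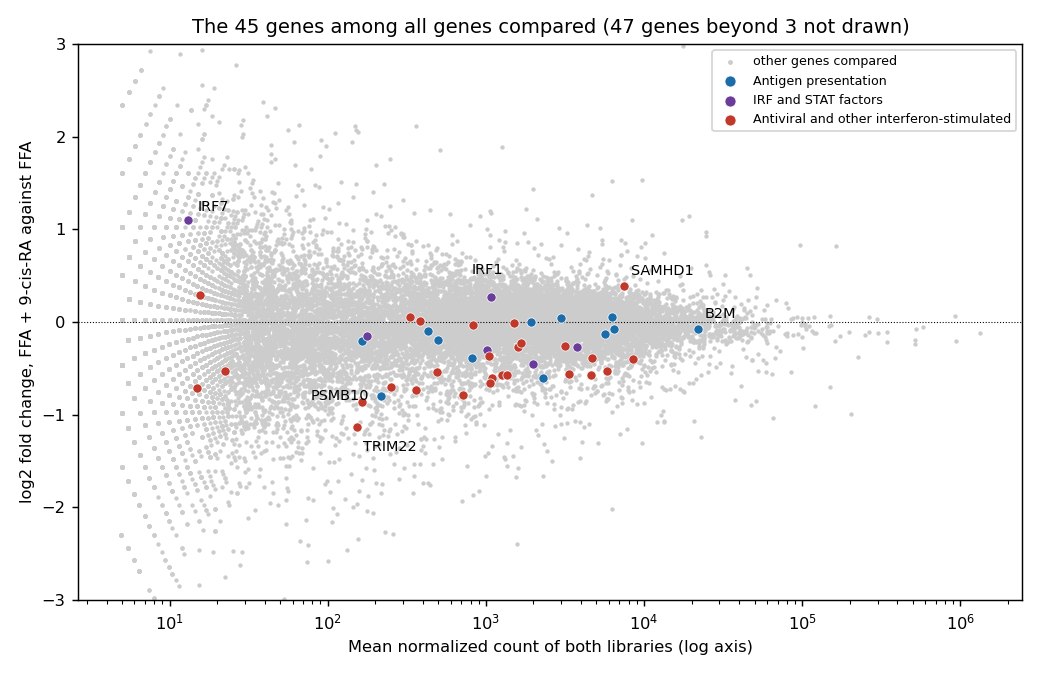
Log2 fold change against the mean normalized count of both libraries (log axis) for all 20431 genes compared, in gray, with the 45 genes colored by role. 47 genes beyond 3 on the log2 scale are not drawn, none of them a member. Members above 100 normalized counts lie mostly below 0, SAMHD1 and IRF1 lie above it, and the members with the fewest counts, among them IRF7, lie where the cloud of all genes is widest.

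As a check of the treatment label, CYP26A1, which encodes a retinoic acid hydroxylase, had 4 counts with FFA and 709 with FFA + 9-cis-RA. Hepatocyte markers were abundant, with ALB at 186609 and 112866 counts and APOA1 at 109241 and 110072, while TTR had 341 and 278. PTPRC and MS4A1 of lymphocytes and DCN of fibroblasts had 0 counts in both libraries. The 5 macrophage markers summed to 97.7 and 58.4 CPM (counts scaled by the library total), nearly all of it LYZ with 5883 and 3332 counts, and none of the 5 was at 0 in both libraries. The 5 lymphocyte markers summed to 6.87 and 7.40 CPM, the 3 endothelial markers to 4.14 and 2.72, and the 4 fibroblast markers to 0.641 and 0.416. The part of these markers in the results was not tested.

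The class I molecule itself was nearly level. B2M, which encodes β2-microglobulin and lies on chromosome 15 from 44711487 to 44718877 (GRCh38), had 22803 counts with FFA and 21213 with FFA + 9-cis-RA, a log2 fold change of -0.08 (95% interval -0.10 to -0.05). HLA-C, a classical heavy chain on chromosome 6 from 31268749 to 31272130, had 5987 and 5370 counts and a value of -0.13 (-0.18 to -0.08). HLA-B, the other classical heavy chain of the set, had 533 and 458 counts and a value of -0.19 (-0.37 to -0.01). All 3 were lower by the counting interval, and none of them passed the lower quartile of all genes. The call of HLA-B was lost with TMM scaling (-0.35 to 0.01) and with total-count scaling (-0.33 to 0.04). HLA-B and HLA-C are close paralogs, and reads that map to both are left out, so their counts are uncertain.

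Of the nonclassical heavy chains, HLA-E was called higher and HLA-F had no call. HLA-E, which presents signal peptides of other class I molecules to natural killer cells, was higher, with 6254 and 6382 counts and a log2 fold change of 0.06 (0.01 to 0.11). HLA-F had 447 and 411 counts and an interval that included 0 (-0.29 to 0.10). Counts of 2 genes in the same library can be set against each other without any scaling. The ratio of HLA-E to B2M differed by 0.13 on the log2 scale (0.08 to 0.19) and that of HLA-E to HLA-C by 0.19 (0.11 to 0.26), so HLA-E was higher relative to both. For HLA-B, HLA-C and HLA-F the ratio to B2M had an interval that included 0.

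The peptide loading machinery differed little too. TAP1, a subunit of the peptide transporter, had 2987 and 3015 counts and a value of 0.04 (-0.03 to 0.11). TAP2, the other subunit, had 1933 and 1902 counts and an interval from -0.09 to 0.10. TAPBP encodes tapasin, which bridges the transporter and the heavy chain. It had 6738 and 6268 counts and a value of -0.08 (-0.13 to -0.03). All 3 intervals lay within 0.13 of 0 on the log2 scale. With total-count scaling TAPBP was no longer lower (-0.08 to 0.02) and TAP1 was higher (0.02 to 0.16). A second annotated gene covers 32.2% of the exonic bases of TAP2 in the same orientation and had 0 counts in both libraries. Reads in such shared bases were left out of the counts.

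NLRC5, the transactivator of the class I genes on chromosome 16 from 56989485 to 57083531, was lower. It had 941 counts with FFA and 706 with FFA + 9-cis-RA, a log2 fold change of -0.39 (-0.53 to -0.24). Its interval lay below those of B2M, HLA-C, HLA-E and the transporter subunits and overlapped those of HLA-B and HLA-F.

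Of the immunoproteasome subunits, PSMB8 and PSMB10 had the lowest values among the antigen presentation genes, while PSMB9 lay near HLA-B. PSMB8, a catalytic subunit on chromosome 6 from 32840717 to 32844679, had 2805 and 1815 counts and a log2 fold change of -0.60 (-0.69 to -0.51). PSMB10, a catalytic subunit encoded outside the MHC on chromosome 16, had 278 and 156 counts and a value of -0.80 (-1.10 to -0.52). PSMB9, the third catalytic subunit, had 179 and 152 counts, and its value of -0.21 had an interval that included 0 (-0.53 to 0.11). Another annotated gene covers 39.4% of the exonic bases of PSMB10 on its strand. That gene had 100 and 98 counts.

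In immunoproteasomes each of these subunits takes the place of a constitutive catalytic subunit, PSMB8 that of PSMB5, PSMB9 that of PSMB6 and PSMB10 that of PSMB7. The constitutive subunits were almost level, with log2 fold changes of -0.06 for PSMB5, 0.07 for PSMB6 and 0.09 for PSMB7. Per length, in TPM (counts per exonic base scaled to the library), PSMB8 was at 12.5% of PSMB5 in the FFA library and at 8.59% in the FFA + 9-cis-RA library. PSMB10 was at 5.62% and 3.03% of PSMB7, and PSMB9 at 0.770% and 0.636% of PSMB6. The ratio of PSMB8 to PSMB5 differed by -0.54 on the log2 scale (-0.64 to -0.45) and that of PSMB10 to PSMB7 by -0.89 (-1.19 to -0.60). For PSMB9 and PSMB6 the interval included 0 (-0.60 to 0.05).

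Genomic neighbors within the MHC were compared by the ratios of their counts. In the RefSeq annotation of GRCh38.p14 the starts of TAP1 and PSMB9, which are transcribed in opposite directions, lie 488 bases apart, and that of PSMB8 lies 5940 bases from that of TAP2. The ratio of PSMB8 to TAP2 differed by -0.60 between the libraries (-0.73 to -0.48). For PSMB9 and TAP1 the difference of -0.25 had an interval that included 0 (-0.58 to 0.08).

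Of the transcription factors of the interferon receptor pathway, STAT2 was lower and IRF9 had too wide an interval to place. STAT2, the partner of IRF9 in the ISRE-binding complex, had 2304 and 1650 counts and a log2 fold change of -0.45 (-0.55 to -0.36). IRF9, its DNA-binding partner, had 188 and 166 counts and an interval that included 0 (-0.46 to 0.16). Another annotated gene covers 42.2% of the exonic bases of IRF9 on its strand. IRF3, the factor that switches on interferon genes after nucleic acid sensing, had 4167 and 3399 counts and a value of -0.27 (-0.33 to -0.20).

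IRF1 and IRF2 went opposite ways. IRF1, an activator of interferon-responsive promoters on chromosome 5 from 132481609 to 132490777, was higher, with 987 and 1164 counts and a log2 fold change of 0.27 (0.14 to 0.39). IRF2, which competes with IRF1 for the same sites, had 1130 and 901 counts and a value of -0.30 (-0.43 to -0.17). The ratio of IRF1 to IRF2 counts differed by 0.56 on the log2 scale (0.39 to 0.74). IRF7, the interferon-inducible amplifier of type I interferon genes, had 8 and 18 counts, too few to show a difference, with an interval from -0.08 to 2.61.

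**Figure D3:**
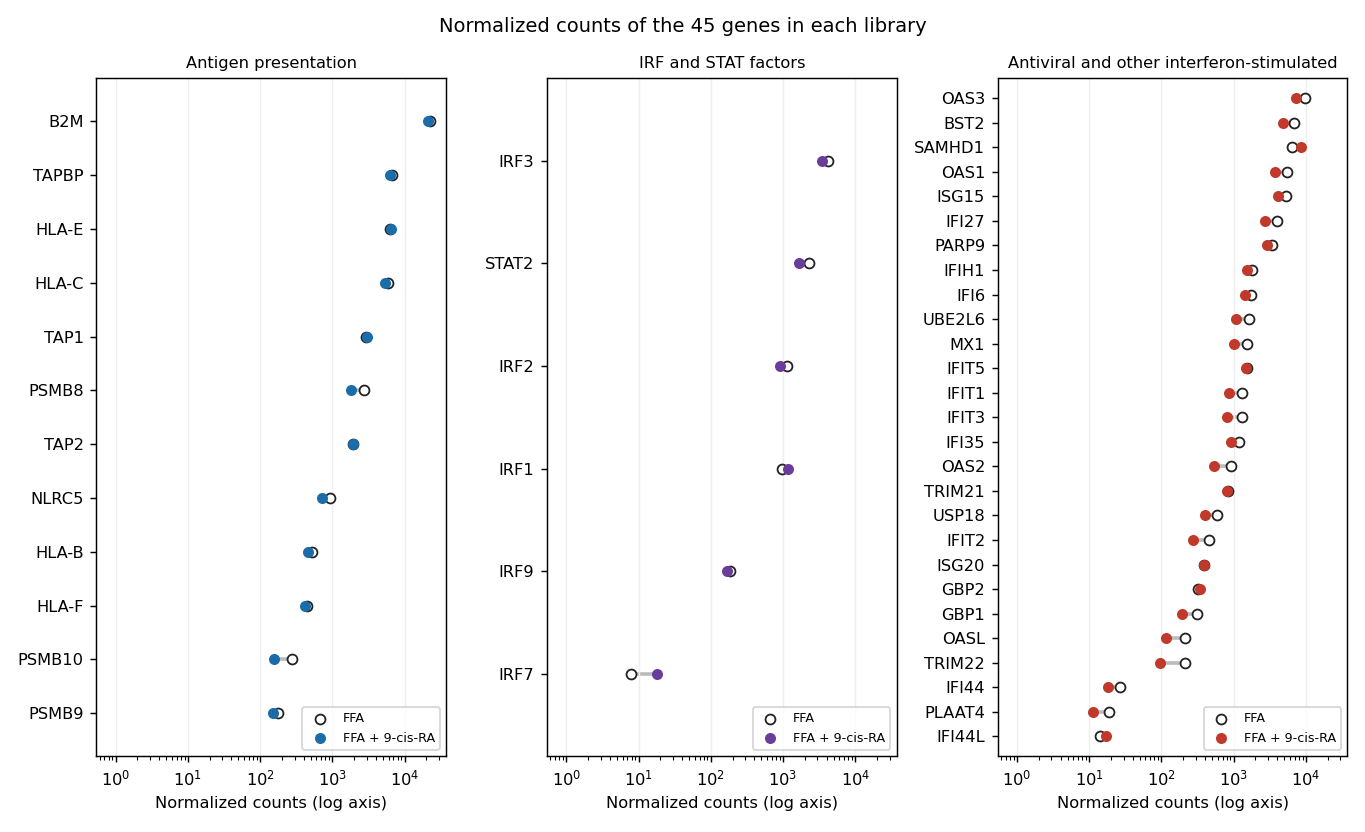
Normalized counts (log axis) of each of the 45 genes in the FFA library (open circles) and the FFA + 9-cis-RA library (filled circles), in 3 panels by role and ordered by the FFA value. Filled circles lie to the left of open ones for most antiviral genes, SAMHD1 and IRF1 show the reverse, and the circles of B2M, HLA-E, TAP1, TAP2 and IFIT5 nearly coincide.

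The IFIT family encodes proteins that bind foreign RNA and block its translation, and its genes form a cluster on chromosome 10 between 89283694 and 89420997. IFIT1 had 1326 counts with FFA and 858 with FFA + 9-cis-RA, a log2 fold change of -0.60 (-0.73 to -0.48). IFIT3, which stabilizes IFIT1, had 1309 and 811 counts and a value of -0.66 (-0.79 to -0.54). IFIT2 had 457 and 270 counts and a value of -0.73 (-0.95 to -0.51). IFIT5, at the far end of the cluster, differed little, with 1518 and 1483 counts and an interval from -0.11 to 0.10. The ratios of IFIT1, IFIT2 and IFIT3 to IFIT5 differed by -0.59, -0.73 and -0.66 between the libraries, and the upper bounds of their intervals ran from -0.49 to -0.43.

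All 4 genes of the 2′-5′ oligoadenylate synthetase family were lower. The synthetases sense double-stranded RNA, and OAS1, OAS3 and OAS2 lie next to each other on chromosome 12. OAS3 had 9775 and 7289 counts, the most of any antiviral gene in the FFA library, and a log2 fold change of -0.40 (-0.44 to -0.35). OAS1 had 5584 and 3677 counts and a value of -0.58 (-0.64 to -0.51). OAS2 had 922 and 525 counts and a value of -0.78 (-0.94 to -0.63). Within the cluster the values were thus unequal, and the ratios of OAS1 and OAS2 to OAS3 differed by -0.18 (-0.25 to -0.10) and -0.39 (-0.55 to -0.23). OASL, which lacks synthetase activity and lies farther along the chromosome, had 216 and 116 counts and a value of -0.86 (-1.21 to -0.54).

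ISG15, its conjugating enzyme UBE2L6 and its protease USP18 were lower as well. ISG15, a ubiquitin-like modifier, had 5362 and 4029 counts and a log2 fold change of -0.38 (-0.44 to -0.33). UBE2L6 had 1634 and 1079 counts and a value of -0.57 (-0.68 to -0.46). USP18, which also restrains the type I interferon receptor, had 587 and 396 counts and a value of -0.54 (-0.73 to -0.35). HERC5, a ligase for ISG15 that is no member, had 3 and 6 counts, under the minimum for comparison. ISG15 and BST2 were the most abundant of the 45 genes per length in the FFA library, at 295 and 302 TPM, ahead of B2M at 179, HLA-C at 114 and HLA-E at 102. These levels depend on the annotated exon length, which for B2M is 6079 bases over all its transcripts.

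Restriction factors made up much of the remainder. BST2, or tetherin, which holds budding virions at the cell surface, had 6977 and 4749 counts and a log2 fold change of -0.53 (-0.58 to -0.47). MX1, a dynamin-like GTPase that traps viral ribonucleoproteins, had 1524 and 1005 counts and a value of -0.57 (-0.69 to -0.46). TRIM22, an antiviral ubiquitin ligase on chromosome 11 from 5689697 to 5737089, had the lowest value of the set, with 212 and 94 counts and a log2 fold change of -1.14 (-1.51 to -0.79). TRIM21, a cytosolic antibody receptor on the same chromosome, was close to level, with 842 and 808 counts and an interval from -0.17 to 0.11. The ratio of TRIM22 to TRIM21 differed by -1.11 between the libraries (-1.51 to -0.73).

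SAMHD1 was the antiviral gene called higher, while 19 were lower and 7 had an interval that included 0. It encodes an enzyme that degrades deoxynucleotides and thereby limits reverse transcription. The gene, on chromosome 20 from 36889773 to 36951901, had 6559 counts with FFA and 8432 with FFA + 9-cis-RA, a log2 fold change of 0.39 (0.34 to 0.44), and it was the single antiviral gene whose interval lay above 0. The summed counts of the antiviral genes, to which OAS3 and SAMHD1 contributed the most, gave a log2 fold change of -0.31, closer to 0 than the median of -0.53.

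The guanylate-binding proteins, GTPases that attack intracellular pathogens, differed among themselves. GBP1 had 314 and 189 counts and a log2 fold change of -0.70 (-0.97 to -0.44), while GBP2 had 328 and 334 counts and an interval from -0.17 to 0.28. The ratio of GBP1 to GBP2 differed by -0.76 (-1.11 to -0.41). GBP3, which is no member, was lower like GBP1, with 270 and 175 counts and a value of -0.60 (-0.88 to -0.32). These genes have close paralogs, so reads that fit more than 1 of them were left out.

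Among the remaining genes with a total of at least 100 counts, IFI27, a mitochondrial protein induced by interferon α, had 4035 and 2675 counts and a log2 fold change of -0.57 (-0.64 to -0.49). IFI35, IFI6, PARP9 and IFIH1 were lower by less, at -0.37, -0.26, -0.26 and -0.23, with upper interval bounds between -0.25 and -0.13. IFIH1 encodes MDA5, a cytosolic sensor of double-stranded RNA. ISG20, an exonuclease gene, had 387 and 382 counts and an interval from -0.20 to 0.22. The 3 other members, IFI44, IFI44L and PLAAT4, had between 11 and 27 counts in each library, and all their intervals included 0. PLAAT4 was formerly named RARRES3 as a retinoid-responsive gene, and its 19 and 11 counts are too few to show a difference.

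**Figure D4:**
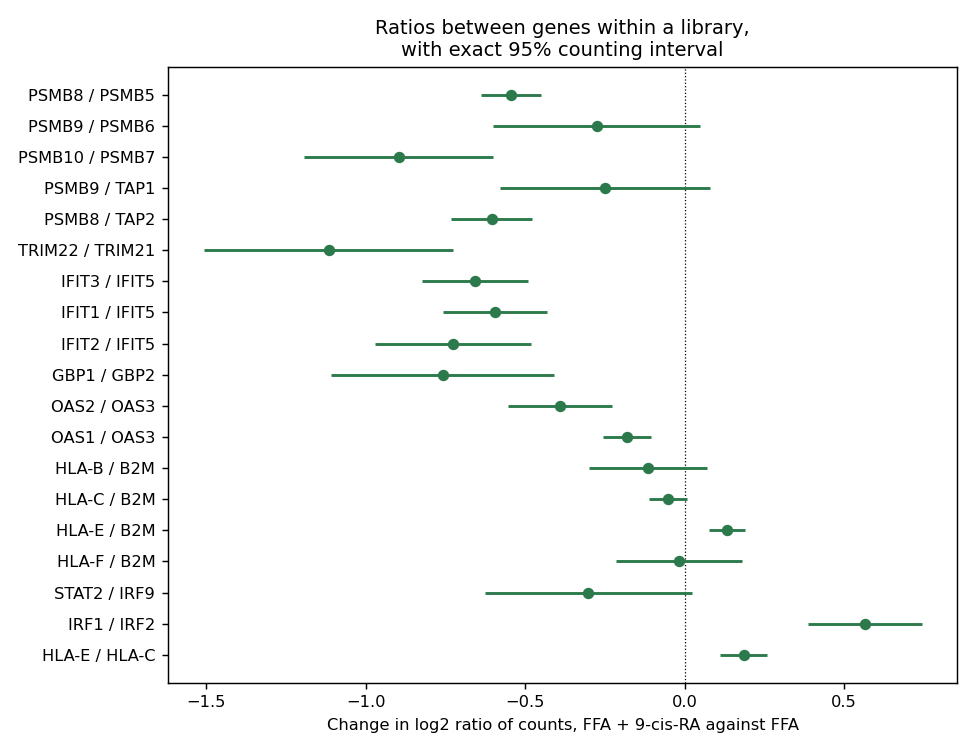
Change between the libraries in the log2 ratio of counts for 19 pairs of genes, with exact 95% counting intervals (horizontal axis in log2 units, no scaling needed). The immunoproteasome, TRIM, IFIT, GBP and OAS ratios lie below 0, with the intervals of PSMB9 against PSMB6 and TAP1 reaching past it. Those of the class I heavy chains to B2M lie close to 0, with HLA-E above it, and IRF1 against IRF2 lies farthest above 0.

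The ISRE was looked for in the promoters. The list names genes known to respond to interferon, so a high share of ISRE cores follows from their choice and is no independent result. RefSeq promoter windows of GRCh38.p14, from 250 bases before to 50 bases after the start, were given for 33 of the 45 genes. HLA-E, NLRC5, IRF2, IRF3, IRF7, IFIT2, OAS2, OASL, TRIM22, USP18, GBP2 and PLAAT4 had no entry in this table. The core searched was GAAA, any 2 bases, GAAA, on both strands, so that on the opposite strand it reads TTTC, any 2 bases, TTTC. It was present in 21 of the 33 windows, or 63.6%, against 3.65% of the 27305 windows of all genes. Among the 12246 windows of genes compared that are no members the share was 2.70%. By role it was present in 15 of 20 antiviral genes, in 6 of 10 antigen presentation genes and in 0 of 3 IRF and STAT genes.

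Matches were found in genes with values well below 0 and in genes with values near 0. The windows shown first belong to IFIT1, IFIT3, BST2, ISG15, GBP1 and PSMB10, all lower in the FFA + 9-cis-RA library, and each is 30 bases long on the strand of the gene, 5′ to 3′, with the core or a run of overlapping cores in capitals.
IFIT1: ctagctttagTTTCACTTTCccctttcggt
IFIT3: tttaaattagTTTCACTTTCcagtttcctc
BST2: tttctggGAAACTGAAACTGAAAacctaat
ISG15: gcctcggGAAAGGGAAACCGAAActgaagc
GBP1: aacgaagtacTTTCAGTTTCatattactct
PSMB10: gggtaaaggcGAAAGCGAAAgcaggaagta

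These lie at chr10:89392497-89392526, chr10:89327865-89327894, chr19:17405738-17405767, chr1:1013377-1013406, chr1:89065316-89065345 and chr16:67936852-67936881 in that order, on the plus strand for IFIT1, IFIT3 and ISG15 and on the minus strand for BST2, GBP1 and PSMB10. The first base in capitals was 116, 122, 130, 113, 127 and 21 bases before the start. IFIT1 and IFIT3 hold a further match each, which is not shown.

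The same core stands in the windows of IFIT5, ISG20, TAP1, TAP2, TAPBP and B2M, whose log2 fold changes lay between -0.08 and 0.04.
IFIT5: ttacgtttagTTTCGATTTCttaagtttca
ISG20: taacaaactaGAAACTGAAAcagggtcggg
TAP1: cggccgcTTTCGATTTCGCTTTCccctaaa
TAP2: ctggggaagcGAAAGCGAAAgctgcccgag
TAPBP: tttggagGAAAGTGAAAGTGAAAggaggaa
B2M: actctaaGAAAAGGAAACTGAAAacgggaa

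These lie at chr10:89414539-89414568, chr15:88638937-88638966, chr6:32853816-32853845, chr6:32838778-32838807, chr6:33314076-33314105 and chr15:44711366-44711395, on the minus strand for TAP1, TAP2 and TAPBP and on the plus strand for the others. IFIT5 holds 3 separate matches, more than IFIT1, and its interval included 0. The capitals of TAP2 and PSMB10 read the same 10 bases, while their log2 fold changes were 0.00 and -0.80. Over the members with a window, 13 of the 21 with the core and 8 of the 12 without it were lower, and the median log2 fold changes were -0.26 and -0.23. By role the medians with and without it were -0.40 and -0.37 for antiviral genes and -0.077 and -0.20 for antigen presentation genes. The members without a window, absent here, include TRIM22, OASL, OAS2 and IFIT2, at -1.14, -0.86, -0.78 and -0.73. They also include HLA-E, which was higher, and IRF7, GBP2 and PLAAT4, whose intervals included 0. Among the genes compared that are no members, the median was -0.032 for the 331 with the core and -0.0016 for the 11915 without it. A match describes letters in a window and is no evidence of binding.

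**Figure D5:**
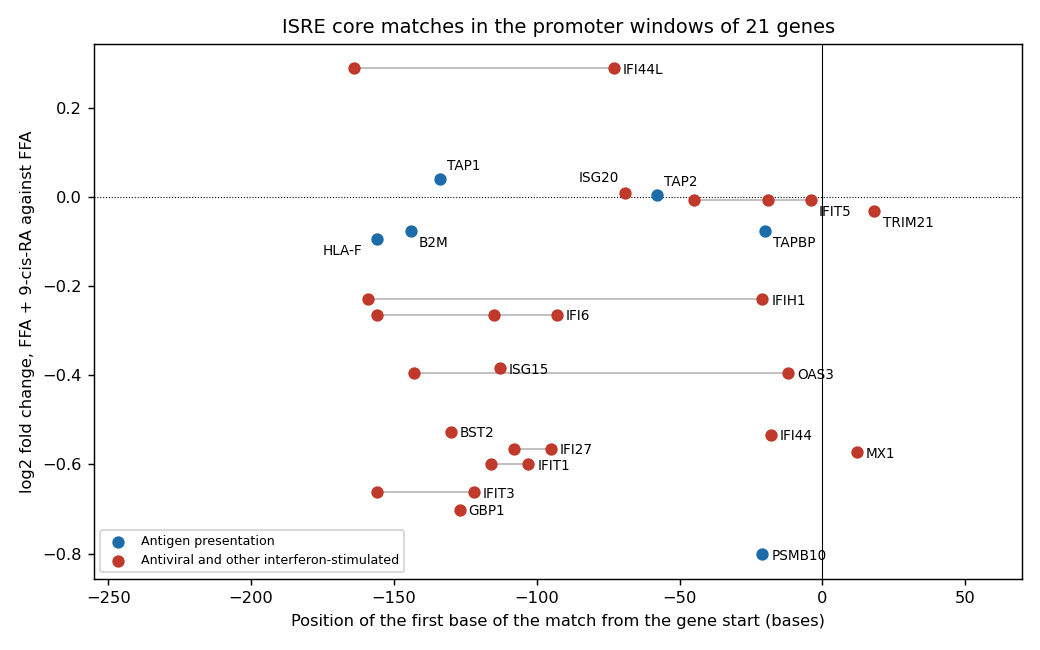
Log2 fold change (FFA + 9-cis-RA against FFA) of the 21 genes with an ISRE core in the promoter window against the position of the match, in bases from the gene start (negative values before it). Points are matches, overlapping ones drawn once, and gray lines join matches of the same gene. Genes near 0, such as TAP1, TAP2 and IFIT5, and genes below -0.5, such as IFIT3 and PSMB10, have matches at like distances.

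The core of the gamma-activated sequence, TTC, any 3 bases, GAA, which STAT dimers bind, was present in 6 of the 33 windows, or 18.2%, against 7.88% of all windows. The choice of genes bears on this share too. Of the 6 genes with the core 4 were lower, and of the 27 without it 17 were lower. Their median log2 fold changes were -0.45 and -0.23. The 6 genes were 4 antiviral genes, all of them lower, and 2 IRF and STAT genes. Among the genes compared that are no members, the median was -0.013 for the 767 with this core and -0.0016 for the 11479 without it. The match of IRF1 lay 124 bases before the start, at chr5:132490879-132490907 on the minus strand. It is shown because IRF1 was the IRF gene called higher, unlike most genes with this core.
IRF1: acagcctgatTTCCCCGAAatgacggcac

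Other genes of the interferon pathway that are no members were counted by lists. Of the interferon genes, IFNA1, IFNG, IFNE and IFNK had 0 counts in both libraries, which allows up to 3 counts, or 0.0493 CPM with FFA and 0.0520 CPM with FFA + 9-cis-RA. IFNB1 had 3 and 9 counts, IFNL1 17 and 12, IFNL2 8 and 3, and IFNL3 8 and 4. All 4 intervals included 0, so a difference in interferon transcripts was not detectable at this depth. IFNL2 and IFNL3 are near-identical, so their counts are uncertain.

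Of 9 receptor and Janus kinase genes 5 were higher and 2 were lower, with a median log2 fold change of 0.10. The 2 lower genes are 22.2% of the list, near the 25.7% over all genes compared, and the 5 higher ones are 55.6%, against 22.5%. IFNLR1, the specific chain of the type III interferon receptor, had 781 and 1081 counts and a log2 fold change of 0.50 (0.36 to 0.63). IFNAR1 of the type I receptor, JAK1 and JAK2 were also higher, at 0.14, 0.15 and 0.37, whereas IFNGR1 of the interferon γ receptor was lower, at -0.20 (-0.25 to -0.16). Of 6 negative regulators 1 was higher and 1 was lower, 16.7% each and thus no more than over all genes compared. SOCS3, a feedback inhibitor of Janus kinases, was the higher one, with 80 and 137 counts and a value of 0.80 (0.40 to 1.22).

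Nucleic acid sensing genes were lower in 6 of 10 cases (25.7% over all genes compared) and higher in 0 (22.5%), with a median of -0.30. STING1, the adaptor of cytosolic DNA sensing, had 271 and 135 counts and a log2 fold change of -0.97 (-1.29 to -0.67). RIGI and DHX58, the cytosolic RNA sensor genes related to IFIH1, were at -0.16 and -0.33. IFI16, a DNA sensor with 17 and 7 counts, had an interval that included 0. MAVS, the adaptor of the RNA sensors, was at -0.07 (-0.10 to -0.04) with 16791 and 15716 counts.

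A further list of interferon-stimulated genes outside the set had 25 genes to compare, of which 14 were lower and 1 was higher, with a median of -0.20. These are 56% and 4% of the list, against 25.7% and 22.5% over all genes compared. IFITM3, which blocks viral entry from endosomes, had 19604 and 13201 counts and a log2 fold change of -0.54 (-0.57 to -0.51). XAF1 was at -0.67 and IFITM1 at -0.66, both lower. ADAR, an RNA-editing enzyme, was higher at 0.11 (0.08 to 0.15). CXCL11, a chemokine gene, had 13 and 4 counts and an interval that included 0. Of 15 other genes of the class I pathway 10 were lower and 3 were higher, or 66.7% and 20% against the same 25.7% and 22.5%, with a median of -0.19. ERAP2, an aminopeptidase that trims peptides, was at -0.63 (-0.74 to -0.52), RFX5, a factor that binds class I promoters together with NLRC5, at -0.42, and the chaperone genes CALR and PDIA3 at -0.31 and -0.25. RFXAP, a partner of RFX5, was higher at 0.21 (0.09 to 0.33).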

How the data were processed

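RNA from 2 HepG2 cultures, 1 per group, was sequenced as stranded poly(A) libraries. The deposited values are raw counts of fragments per gene, made by the authors with featureCounts version 2.0.1. Per the file headers, both mates had to map at a valid distance, the strand setting was 2 (reverse), and reads mapping to several places or genes were not counted. The processing notes name GRCh38 and DESeq2, while the aligner and annotation release are not given in the sources used here. Reads were mapped to one reference genome, and the effect of this on the polymorphic HLA genes was not tested.

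Of 60623 identifiers, 60295 had a name in the table used and 58516 were in GENCODE release 29. DESeq2 version 1.42.0 gave size factors and edgeR version 4.0.16 the TMM factors, in R version 4.3.3. Values were computed in Python 3.11.15 with scipy 1.17.1, and plots with matplotlib 3.10.9. The log2 fold change used a pseudocount of 1 and a minimum of 10 counts over both libraries. TPM values were used only between genes within a library. Changes in ratios have exact conditional 95% intervals. The code was tested on simulated data. Intervals and floors (3 counts) cover counting error only.

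The members and lists were chosen with earlier results of these data known. All 45 members are accounted for, and those with at least 100 counts and an interval excluding 0 are given in full or by value. From the other lists, genes with at least 50 counts past 1, and otherwise up to 3 per direction, were to be named, and further ones were named after their values were seen, as were the pairs of genes outside the proteasome. Of the lists, 3 genes are not reported here. As alternatives, scaling used TMM or total counts, the pseudocount was 0.1 or 5, and further ones were no count minimum or 50, protein-coding genes, whole intervals past 1, summed counts and sign alone.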

Additional observations from a re-analysis of the deposited data

How the results depend on the processing

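No paired analysis was possible because each group has 1 library. For the same reason no library could be left out. Of 266 values of single genes under an alternative, 263 stayed within their counting interval, 3 moved beyond it and 0 changed sign among genes called higher or lower. Total-count scaling moved these 3, to -0.03 for B2M, -0.35 for OAS3 and 0.44 for SAMHD1. It also called 2 antigen presentation genes higher rather than 1, TAP1 being the added one, and the number of lower members was 27, against 28 with TMM and 29 with DESeq2 factors. The lost calls were HLA-B under both and TAPBP under total counts. The median over all genes compared was -0.020, -0.00023 and 0.029 under the DESeq2, TMM and total-count scalings.

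With the sign alone, 3 antigen presentation, 2 IRF and STAT, 4 antiviral and 9 of all members were higher. Summed counts gave -0.31 for the antiviral genes and narrowed the difference between the lists from 0.42 to 0.22, an alternative added after the data were seen. The member above 1, an IRF, was lost (0 above 1) with a pseudocount of 5, with at least 50 counts and with the whole interval past 1, and with the last the antiviral member below -1 was lost too (0 below -1). At a threshold of 0.5, 2 antigen presentation genes, 15 antiviral genes and 17 of all members were below -0.5. Over all genes, 341 were above 1 and 594 below -1 with a pseudocount of 5, 3771 and 2493 without a minimum, 153 and 361 with at least 50 counts, 79 and 190 with the whole interval past 1, 270 and 446 among protein-coding genes, and 1845 and 2919 past 0.5 (against 689 and 1002). Fewer or more genes enter under another minimum. The counts of IRF7, IFI44, IFI44L, PLAAT4 and the interferon genes limit what this depth can show.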

Other observations

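MHC class II genes, which present extracellular peptides and are normally restricted to antigen-presenting cells, were mostly near the floor. HLA-DRA and HLA-DQA1 had 0 counts in both libraries, HLA-DRB1 had 1 and 4, and CIITA, the class II counterpart of NLRC5, had 10 and 9. CD74, the invariant chain gene, was the exception, with 12292 counts with FFA and 11010 with FFA + 9-cis-RA, a log2 fold change of -0.13 (95% counting interval -0.17 to -0.09). HLA-DMA had 72 and 57 counts and an interval that included 0.

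Class I-like genes outside peptide presentation to conventional T cells were divided. MR1, which presents vitamin B metabolites to mucosal-associated invariant T cells, had 1052 and 644 counts and a log2 fold change of -0.68 (-0.82 to -0.54), lower than any class I heavy chain of the set. The stress ligand genes MICA and MICB were higher, at 0.16 (0.08 to 0.23) and 0.17 (0.05 to 0.30). HFE, which regulates iron uptake, was at -0.19 (-0.37 to -0.01). HLA-G and CD1D had 0 counts in both libraries. These genes were named after their values were seen, and with 1 library per group the differences compare these libraries only.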
